A study of Mus musculus with 6 samples.

Results

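The T cell receptor gives a T cell its specificity, and a second set of surface proteins sets how strongly the cell answers. The genes described here encode 10 of these proteins: CD28 and ICOS of the CD28 family, the adhesion receptors CD2 and CD44, the scavenger receptors CD5 and CD6, the nectin receptor CD226, the SLAM receptors SLAMF1 and SLAMF6, and CD40 ligand. They were taken by gene symbol from a table of 49671 genes, each symbol matched 1 row, and all 10 passed the filter on low values. RNA came from splenic CD3+ T cells of female F1 mice (strain F1 mus x cast), enriched on columns and either collected at once (unstimulated, 3 libraries) or cultured for 48 h on plates coated with anti-CD3 at 1 µg/ml, with anti-CD28 added in solution at 10 µg/ml (stimulated, 3 libraries). All libraries come from the same cross, of C57BL/6 mothers heterozygous for an Xist deletion with M. m. castaneus fathers, in which X inactivation is skewed. A daughter that inherits the deletion can inactivate only the castaneus X, so that the C57BL/6 (mus) X is the active one. The labels call the libraries biological replicates without saying whether each is 1 mouse or a pool, and the age of the mice is not given in the sources used here. Levels are RPKM (reads scaled to a kilobase of gene length and a mega, M, of sequenced reads), and a separate table counts the reads assigned to the mus or the castaneus (cast) allele, 9.61 M to 20.2 M per library.

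CD28 binds CD80 and CD86 on antigen-presenting cells and feeds phosphoinositide 3-kinase and NF-kB signalling, and ICOS, a related receptor, binds ICOSL and is known for its role in follicular helper T cells. CD2 and CD226 strengthen contact with the partner cell through CD48 and the poliovirus receptor, while CD5 and CD6 damp receptor signalling. SLAM receptors bind each other between cells and signal through the adaptor SAP, CD44 binds hyaluronan, and CD40 ligand activates B cells and dendritic cells through CD40. One of the stimulating antibodies used here binds CD28 itself. The question the comparison addresses is how RNA of these receptors differed after 48 h of stimulation, and whether the parental alleles contributed alike.

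Stimulation went with a reordering of the receptors. No library was cultured without the antibodies, so stimulation and 48 h of culture cannot be told apart in any difference between the groups. Icos, Slamf1, Cd2, Cd6 and Cd5 rose, Slamf6, Cd40lg, Cd44 and Cd226 fell, and Cd28 did not pass the test. That is 5 rises and 4 falls among 10 genes, with a median log2 fold change of 0.33, where 31.2% of the 13288 genes tested were higher and 48.9% were lower, with a median of -0.24 (limma on log2(RPKM + 1), Benjamini-Hochberg over all genes tested). So 9 of 10 passed in either direction, where 80.1% of all genes did. The stimulated and unstimulated libraries did not overlap for 9 of the 10, and for 83.5% of all genes tested. The median gene stood at -0.24 as deposited and at 0.02 after median centring. With that centring and with quantile normalisation the same 9 receptor genes passed in the same direction. Summed over 9 T cell receptor complex and lineage genes, RPKM was 1337 to 1685 unstimulated and 1223 to 1265 stimulated, so that T cell markers were high in both groups and lower after stimulation. Of these 9 genes 5 fell and none rose, among them the CD3 chain genes Cd3g (log2 -1.20) and Cd3e (-0.89), and the list's median of -0.27 was near the -0.24 of all genes tested.

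**Figure D1:**
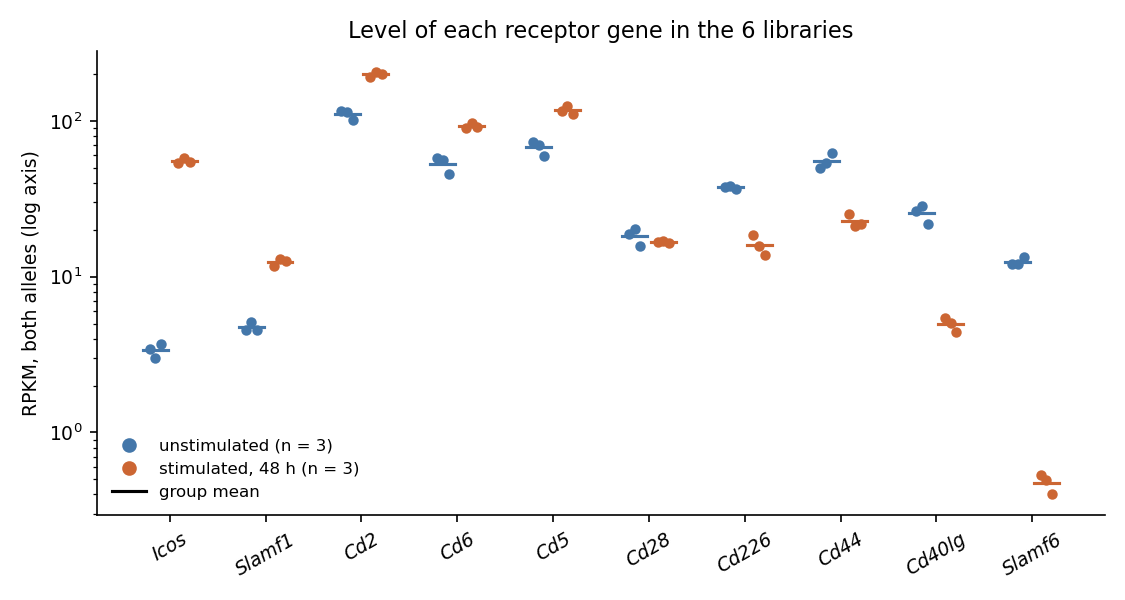
RPKM of both alleles together (log axis) for the 10 receptor genes, 1 point per library, with a line at the mean of each group of 3. Icos moves from the lowest mean (3.37) to 55.3, and Slamf6 falls from 12.4 to 0.476, while the Cd28 groups overlap.

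Before stimulation Cd2 had the highest level per length, at 110.4 ± 7.67 RPKM (SD, n = 3), and Icos the lowest, at 3.37 ± 0.365 RPKM. Between them stood Cd5 (67.6 RPKM), Cd44 (55.3), Cd6 (53.2), Cd226 (37.4), Cd40lg (25.5), Cd28 (18.2), Slamf6 (12.4) and Slamf1 (4.72). The libraries of Cd5 and Cd44 overlapped, as did those of Cd44 and Cd6, and every other pair of neighbours in this order was apart. After stimulation the order was Cd2 (198 RPKM), Cd5 (116.5), Cd6 (92.7), Icos (55.3), Cd44 (22.7), Cd28 (16.7), Cd226 (16.0), Slamf1 (12.4), Cd40lg (4.95) and Slamf6 (0.476). Only Cd28 and Cd226 then overlapped as neighbours.

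The CD28 family genes are neighbours on chromosome 1 of mm10, with Cd28 at 60716800 to 60773359, Ctla4 at 60887000 to 60915832 and Icos at 60977927 to 61000320, all on the plus strand. Icos was at 3.42, 2.99 and 3.71 RPKM in unstimulated replicates 1, 2 and 3 and at 53.8, 57.9 and 54.4 RPKM in the stimulated ones. Every stimulated library was far above every unstimulated one. The means were 3.37 ± 0.365 and 55.3 ± 2.22 RPKM (SD, n = 3 each), a 16.4-fold rise (log2 fold change 3.69 ± 0.08 SE, limma adjusted p = 3.92e-07). The unclassified transcript Gm37039 lies inside Icos on the same strand and had 0.320 to 0.506 RPKM unstimulated and 1.38 to 1.79 RPKM stimulated, far below Icos in the stimulated libraries.

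Cd28 was at 18.9, 20.1 and 15.6 RPKM unstimulated and 16.8, 16.8 and 16.4 RPKM stimulated. The stimulated values lay inside the unstimulated range, and the log2 fold change was -0.11 ± 0.09 SE (limma adjusted p = 0.305). Unstimulated replicate 3 decided this call, since without it the value was -0.21 with limma adjusted p = 0.0079. Without that library the median of all genes tested was -0.23, so Cd28 stood near the typical gene. That library had the lowest summed T cell markers (1337 RPKM, against 1572 and 1685) and the highest summed markers of other cells, at 232 RPKM for B cells (against 141 and 118), 3378 for myeloid cells (against 1154 and 1538), 1305 for erythroid cells and platelets (against 80.5 and 824) and 338 for NK cells (against 241 and 282). The part of this in the result was not tested. The direction of Cd28 also differed with the scaling and between the tables. In RPKM the log2 value was 0.15 after median centring and -0.07 after quantile normalisation (limma adjusted p = 0.31 and 0.643). On summed allelic counts it was 0.69 with edgeR (adjusted p = 0.00031) and 0.68 with DESeq2 (adjusted p = 2.86e-08). Allelic reads of Cd28 per M allelic reads went from 199 ± 25.9 to 270.4 ± 7.96 (SD, n = 3 each), a log2 ratio of 0.44 against -0.13 for RPKM. This gap of 0.57 was larger than that of 98.8% of the 11278 genes with both measures, whose median gap was 0.17.

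**Figure D2:**
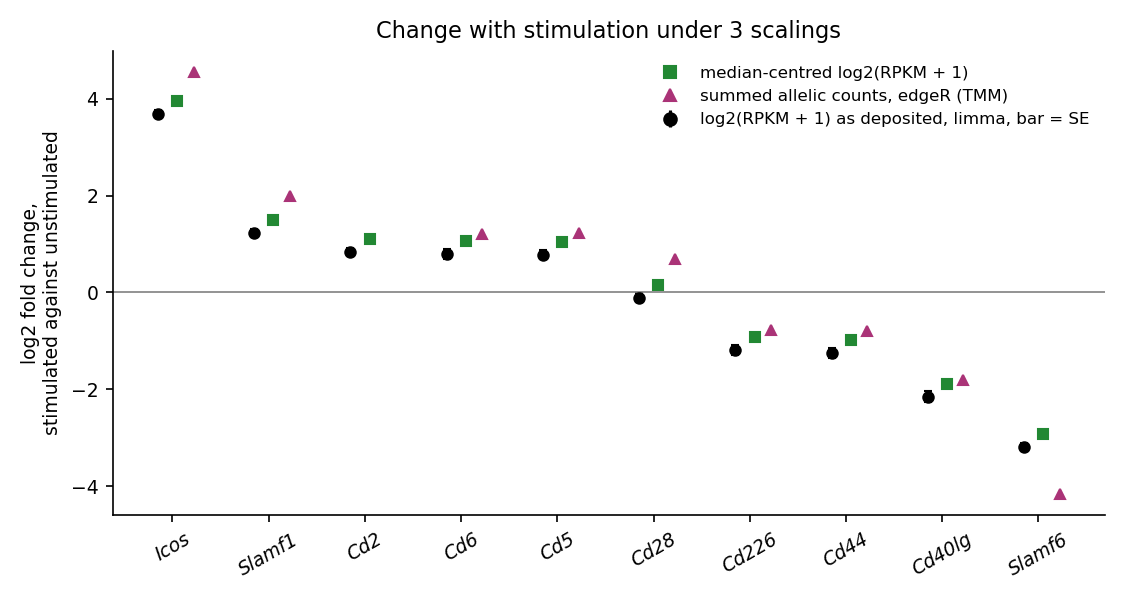
Log2 fold change with stimulation for the 10 receptor genes from RPKM as deposited (limma, bar is the SE), after median centring, and from summed allelic counts (edgeR with TMM factors, no value for Cd2). Cd28 stands at -0.11, 0.15 and 0.69, and the other genes keep 1 sign.

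The adhesion receptor CD2, which binds CD48 in mice, had the most RNA of the group. Cd2 (chromosome 3, 101275899 to 101287939, minus strand) was at 115.1, 114.7 and 101.6 RPKM unstimulated and 190.0, 206 and 199 RPKM stimulated, with no overlap. The rise was 1.79-fold (log2 fold change 0.84 ± 0.07 SE, limma adjusted p = 5.5e-05). Only 2 allelic reads were assigned to Cd2 in all 6 libraries together, so its alleles could not be compared.

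Cd5 and Cd6 encode scavenger receptors that sit with the T cell receptor and limit its signal, and both genes lie side by side on the minus strand of chromosome 19 (Cd5 at 10717116 to 10739002, Cd6 at 10789341 to 10830058). Cd5 was at 73.4, 69.6 and 59.8 RPKM unstimulated and 115.1, 124 and 110.6 RPKM stimulated. Cd6 was at 57.9, 56.2 and 45.4 RPKM unstimulated and 90.5, 96.8 and 90.9 RPKM stimulated. The neighbours moved by nearly equal folds, 1.72 for Cd5 (log2 0.78 ± 0.09 SE, limma adjusted p = 0.00022) and 1.74 for Cd6 (log2 0.80 ± 0.10 SE, limma adjusted p = 0.00030). In both, unstimulated replicate 3 was the lowest library, and without it the log2 values were 0.70 and 0.69.

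Cd44 encodes the hyaluronan receptor, whose surface protein is a common marker of activated and memory T cells. Its RNA fell. The gene (chromosome 2, 102811141 to 102901665, minus strand) was at 50.1, 53.5 and 62.3 RPKM unstimulated and 25.1, 21.2 and 21.6 RPKM stimulated. All stimulated libraries were below all unstimulated ones, by 2.44-fold (log2 -1.25 ± 0.10 SE, limma adjusted p = 4.21e-05). Unstimulated replicate 3 was the highest library, and without it the log2 value was -1.16 (limma adjusted p = 4.93e-05). That library also had the highest summed myeloid markers, and the part of myeloid cells in the fall was not tested. Cd226 encodes a receptor of T and NK cells for the poliovirus receptor and nectin-2. Cd226 (chromosome 18, 89176967 to 89272229, plus strand) was at 37.8, 38.0 and 36.3 RPKM unstimulated and 18.4, 15.8 and 13.8 RPKM stimulated, a fall of 2.34-fold (log2 -1.18 ± 0.10 SE, limma adjusted p = 5.05e-05).

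Both SLAM receptor genes lie on the plus strand of chromosome 1, about 150.4 kb apart by their starts, and moved in opposite directions. Slamf1 (171767127 to 171801184), a receptor of activated T cells, was at 4.53, 5.12 and 4.52 RPKM unstimulated and 11.7, 12.99 and 12.5 RPKM stimulated. It rose 2.63-fold (log2 1.23 ± 0.08 SE, limma adjusted p = 1.21e-05). Slamf6 (171917515 to 171953170), a marker of naive and stem-like T cells, was at 12.0, 12.1 and 13.3 RPKM unstimulated and 0.529, 0.498 and 0.402 RPKM stimulated. No other receptor gene of the 10 fell as far, with a ratio of means of 26.1 (log2 -3.19 ± 0.08 SE on the log2(RPKM + 1) scale, limma adjusted p = 6.17e-07). The antisense gene Gm37065 overlaps the start of Slamf6 and had 0.557 to 0.786 RPKM unstimulated and at most 0.0155 RPKM stimulated, and the strand setting of the counting is not given in the sources used here. With a pseudocount of 0.1 the log2 value was -4.45, since a pseudocount of 1 exceeds the stimulated level.

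The promoters of this pair are shown because the genes are close relatives in 1 cluster with opposite changes. Entries of the RefSeq promoter table (GRCm38.p6) were used for 4 of the 10 genes, Cd5, Cd44, Slamf1 and Slamf6. Whether Cd226 has an entry was not assessed. Each entry runs from 250 bases before to 50 bases after the entry's own start. That start can differ from the gene start given above, and the Slamf6 window ends before 171917515. Capitals mark GGAAA, the core of the NFAT site, or TGANTCA, the AP-1 site, on either strand, and no matches of the pair of motifs overlapped here. The Slamf1 window is chr1:171766882-171767181 and the Slamf6 window chr1:171917212-171917511, both on the plus strand.
Slamf1: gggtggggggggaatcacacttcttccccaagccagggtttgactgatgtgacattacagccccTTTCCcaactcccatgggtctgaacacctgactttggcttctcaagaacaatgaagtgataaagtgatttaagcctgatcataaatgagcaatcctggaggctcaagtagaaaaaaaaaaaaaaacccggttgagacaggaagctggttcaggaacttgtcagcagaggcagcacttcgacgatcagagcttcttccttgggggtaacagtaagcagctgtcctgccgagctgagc
Slamf6: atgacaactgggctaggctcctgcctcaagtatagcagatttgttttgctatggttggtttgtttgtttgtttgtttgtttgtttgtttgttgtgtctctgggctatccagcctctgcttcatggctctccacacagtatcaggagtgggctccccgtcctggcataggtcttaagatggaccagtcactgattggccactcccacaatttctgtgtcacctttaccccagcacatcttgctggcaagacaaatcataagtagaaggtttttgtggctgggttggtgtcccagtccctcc
The Slamf1 window held 1 match of GGAAA, read on the minus strand, and the Slamf6 window held 0. A longer motif of the NF-kB (kB) type had 0 matches in Slamf1, 1 in Slamf6 and 2 each in Cd5 and Cd44, and is not capitalised. Over the 32851 promoters of this length that were counted, 61.3% held a GGAAA, 7.8% a TGANTCA and 50.8% the kB-type motif. Cd5 had 1 GGAAA and Cd44 had 2, and none of the 4 windows held TGANTCA. These are letter matches in a short window and describe no binding.

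Cd40lg is the X-linked gene of the group (chromosome X, 57212143 to 57224042, plus strand) and encodes the ligand through which helper T cells activate B cells. It was at 26.3, 28.3 and 21.8 RPKM unstimulated and 5.40, 5.05 and 4.39 RPKM stimulated. The groups were well apart, with a 5.15-fold fall (log2 -2.15 ± 0.11 SE, limma adjusted p = 6.8e-06). Nearly all of its allelic reads came from the mus X. Cast reads numbered 2 of 690, 2 of 574 and 0 of 522 in the unstimulated libraries and 0 of 213, 0 of 228 and 0 of 246 in the stimulated ones.

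In pooled reads the cast share of Cd40lg was 0.224% unstimulated (4 of 1786 reads, 95% exact Clopper-Pearson interval 0.0611% to 0.572%). No cast read was seen among 687 stimulated reads, which allows a share of up to 0.437% (3 counts of the total) or, as the upper end of the exact interval, 0.536%. These bounds cover counting error only. By library the share was 0.290%, 0.348% and 0%, and then 0% in all stimulated libraries, where 0 reads allow up to 1.41%, 1.32% and 1.22% (3 counts), or 1.72%, 1.60% and 1.49% by the exact interval. The difference of mean shares was -0.213 percentage points (exact two-sided permutation p = 0.4, with 0.1 the smallest possible), and the edgeR test of a changed share gave an adjusted p of 0.603, where 3.04% of 362 X-linked genes passed and 1.66% moved away from cast. Neither group reached the 10% share in every library, with at least 20 reads, that was set for calling a gene expressed from the inactive X. The neighbouring gene Arhgef6, whose start is 126.6 kb away, was read from the cast X at 11.4% ± 0.998 unstimulated and 13.5% ± 2.00 stimulated (SD, n = 3 each). The other tested neighbours within 500 kb, Map7d3, Htatsf1 and Rbmx, were at 0% in every library but 1, in which Rbmx was at 0.306%. These 4 genes were named after their values were seen.

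Alleles of the autosomal receptor genes could be compared for 8 of 9 genes, all but Cd2. The cast share changed with stimulation for Icos and Cd28 and did not pass for the other 6 (edgeR interaction of allele and group, with 10.4% of 12470 autosomal genes passing). Both changes were toward cast, as for 5.73% of autosomal genes, and none was toward mus, as for 4.69%. The autosomal share as a whole was 49.3% to 49.4% in every library, so the tables as wholes were balanced.

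Icos was read at a cast share of 65.3%, 68.9% and 63.7% in the unstimulated libraries, from 314, 222 and 317 allelic reads. In the stimulated libraries the share was 96.1%, 95.4% and 95.5%, from 7400, 9457 and 9955 reads. The means were 66.0% ± 2.67 and 95.7% ± 0.383 (SD, n = 3 each), or 29.7 percentage points apart (log2 change of the cast to mus ratio 3.54, edgeR adjusted p = 1.14e-10). Only 0.73% of the autosomal genes tested had as large a change of the ratio in either direction. Both alleles gained reads. The mus allele went from 8.71 ± 1.36 to 21.6 ± 2.40 reads per M allelic reads, a ratio of 2.48, and the cast allele from 16.8 ± 0.745 to 482 ± 16.0, a ratio of 28.7 (SD, n = 3 each). Neither allele's groups overlapped.

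Cd28 shifted the same way by less. Its cast share was 67.0%, 68.6% and 63.5% unstimulated and 78.4%, 77.8% and 79.3% stimulated, from 1996 to 5289 allelic reads per library. The difference was 12.1 percentage points (log2 change of the ratio 0.89, edgeR adjusted p = 1.09e-05). As large a change of the ratio in either direction was seen for 13.8% of the autosomal genes tested. The mus allele of Cd28 stood at 66.4 ± 3.79 and then 58.2 ± 3.64 reads per M allelic reads, a log2 ratio of -0.19, and the cast allele at 132 ± 22.1 and then 212 ± 4.55 (SD, n = 3 each). The direction of the mus difference is not settled, since the change of both alleles together was 0.44 on this scale and 0.69 with edgeR's scaling, a gap larger than the mus difference. The levels of single alleles were not tested.

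**Figure D3:**
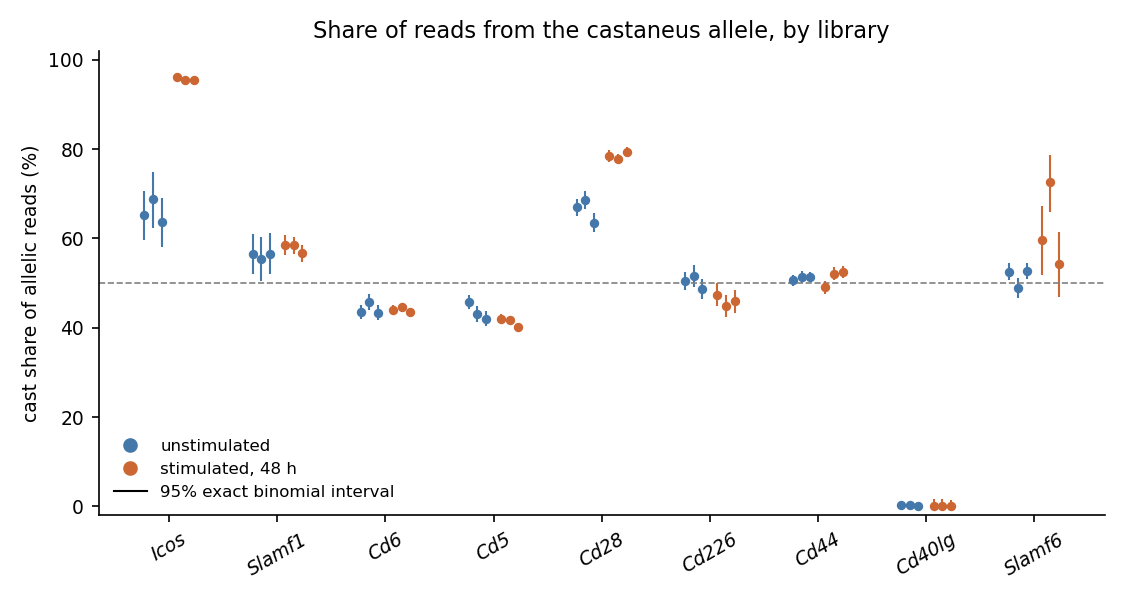
Cast share of allelic reads for 9 receptor genes, 1 point per library with its 95% exact binomial interval, and a dashed line at equal parts. Icos moves from 63.7% to 68.9% up to 95.4% to 96.1%, Cd28 moves to 77.8% to 79.3%, Cd40lg stays at or near 0%, and the Slamf6 intervals are wide after stimulation.

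Ctla4 lies between Cd28 and Icos and encodes the inhibitory receptor that shares CD80 and CD86 with CD28. Its level was 7.98 ± 0.872 RPKM unstimulated and, after a rise of log2 3.25, 84.4 RPKM stimulated (n = 3 each), with a cast share of 75.5% ± 5.64 and then 78.4% ± 1.45 (log2 change of the ratio 0.28, edgeR adjusted p = 0.319). Of 4 protein-coding neighbours with some of their length within 500 kb of Icos that could be tested, Cd28 changed its share and Ctla4, Raph1 and Abi2 did not pass. Raph1 stood at 42.8% and 51.0% and Abi2 at 59.0% ± 9.11 and 51.8% ± 4.33 (SD, n = 3 each, edgeR adjusted p = 0.0651 and 0.381). The window was set after the values of Icos were seen.

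**Figure D4:**
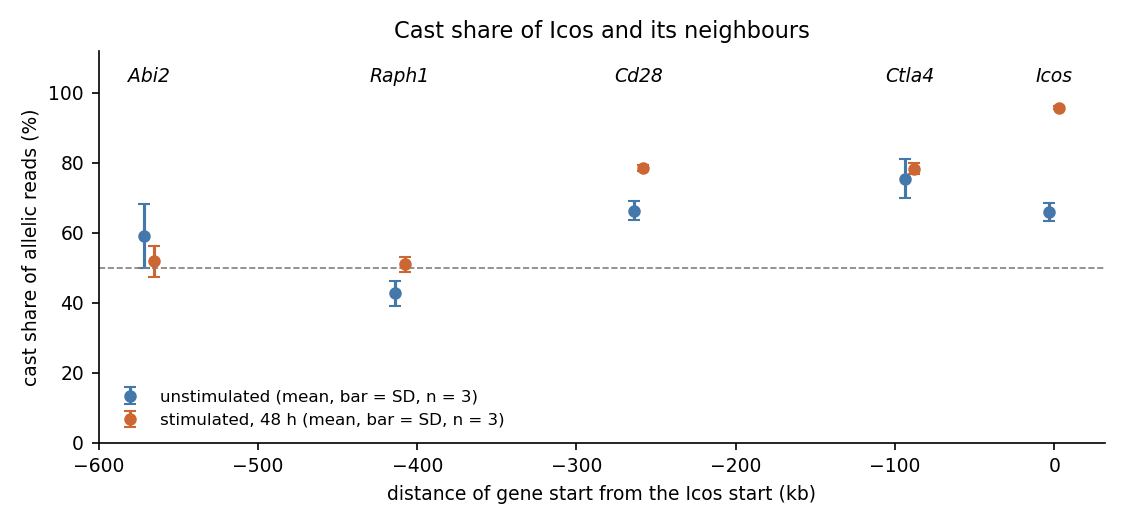
Cast share (mean, bar is the SD, n = 3) of Icos and the 4 tested genes near it, against the distance of each gene's start from that of Icos in kb. Ctla4, 90.9 kb away, stays near 75.5% to 78.4%, between Cd28 and Icos, whose shares rise.

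The other autosomal receptor genes kept shares nearer to equal parts. Cd44 stood at 51.1% ± 0.409 and 51.2% ± 1.90, and Cd6 at 44.2% ± 1.33 and 44.0% ± 0.511 (SD, n = 3 each, unstimulated first). Slamf1 stood at 56.2% ± 0.690 and 57.9% ± 1.11, Cd5 at 43.6% ± 1.89 and 41.3% ± 0.932, and Cd226 at 50.2% ± 1.48 and 46.0% ± 1.26. None of these 5 passed the test of a changed share (edgeR adjusted p = 0.988, 0.951, 0.679, 0.212 and 0.131 in that order). Slamf6 went from 51.4% ± 2.16 to 62.1% ± 9.44, and its stimulated libraries of 166, 204 and 192 reads gave 59.6%, 72.5% and 54.2%. That change did not pass (log2 0.65, edgeR adjusted p = 0.0538) and did pass with the replicate number as a block (adjusted p = 0.0057) and with a minimum of 100 allelic reads (0.0466), while DESeq2 with the same design gave 0.194. Stimulated replicate 2, the highest, carried much of it, since without it the log2 value was 0.31 (adjusted p = 0.307), and without stimulated replicate 3 it was 0.91 (adjusted p = 0.0106).

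Within the unstimulated group 5 of the 8 genes had unequal alleles, against 30.2% of autosomal genes tested (12.0% toward cast and 18.2% toward mus). Cast exceeded mus for Cd28 (log2 0.98), Icos (0.94) and Slamf1 (0.36), and mus exceeded cast for Cd5 (-0.37) and Cd6 (-0.33). Within the stimulated group 7 of 8 were unequal, against 35.5% of autosomal genes (15.3% toward cast and 20.3% toward mus). Slamf6 (log2 0.73) then joined the genes with more cast reads, and Cd226 (-0.23) those with more mus reads. The call for Cd226 was lost without stimulated replicate 2 or 3 (edgeR adjusted p = 0.11 and 0.0599) and with TMM factors per allele (0.0772), and that for Slamf6 without stimulated replicate 2 (0.0562). Cd44 did not pass in either group (log2 0.06 and 0.07) and did with TMM factors (0.14 and 0.13). How reads were assigned to an allele is not given in the sources used here. For Cd5, Cd6 and Cd226, whose mus reads exceeded cast, a bias of that step toward the C57BL/6 reference genome cannot be told apart from a difference between alleles within 1 group.

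**Figure D5:**
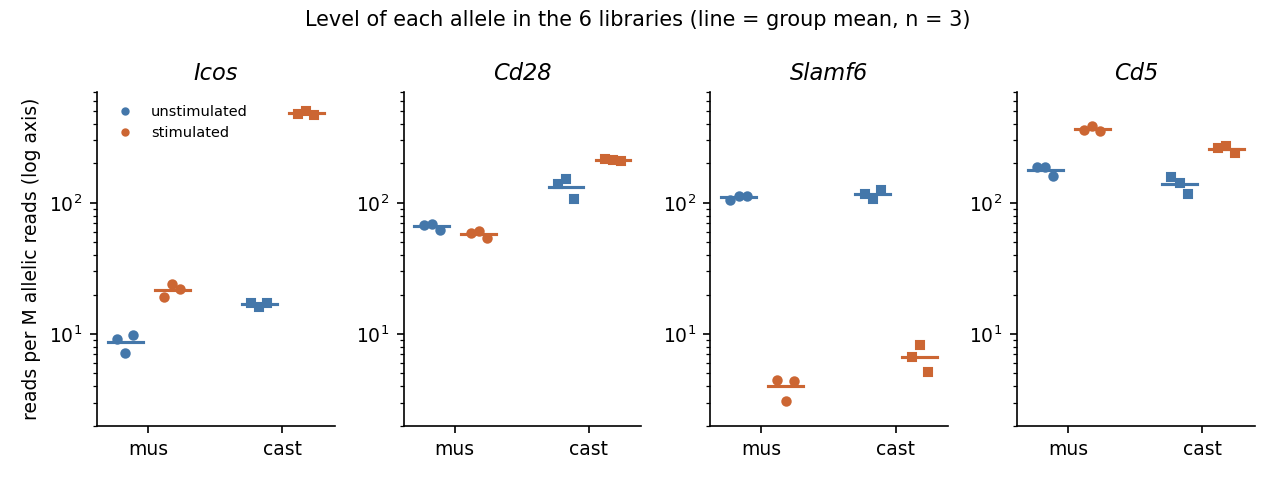
Reads of the mus and of the cast allele per M allelic reads (log axis) for Icos, Cd28, Slamf6 and Cd5, 1 point per library with a line at the mean of each group of 3. The cast allele of Icos reaches 482 while its mus allele reaches 21.6, and the alleles of Cd5 rise side by side.

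The ligands of these receptors were mostly low, and 8 of 12 on the list could be tested, of which 5 fell and 2 rose. Over all genes tested 48.9% were lower and 31.2% higher. Icosl, the ligand of ICOS, fell from 9.69 ± 2.20 to 0.955 ± 0.115 RPKM, and Cd72, a B cell protein proposed as a CD5 ligand, from 8.53 ± 1.52 to 0.987 ± 0.397 RPKM (SD, n = 3 each, log2 -2.43 and -2.27). Cd86 (log2 -1.50) and Cd80 (-1.01), the ligands of CD28, fell too. The list's median was -0.89, against -0.24 for all genes tested. Alcam, the ligand of CD6, went up from 3.81 ± 0.801 to 7.07 ± 0.713 RPKM and Pvr, a ligand of CD226, from 2.97 ± 0.302 to 3.96 ± 0.231 RPKM. Without stimulated replicate 2 only 1 of these rises passed. Cd48, the ligand of CD2, stood at 78.4 ± 3.70 and 81.2 ± 0.925 RPKM (SD, n = 3 each, limma adjusted p = 0.421), while its cast share went from 44.7% ± 2.06 to 62.0% ± 2.63 (log2 change of the ratio 1.02, edgeR adjusted p = 1.19e-05). Of the 8 ligands with a tested share 4 changed, Icosl, Cd48, Alcam and Pvr, where 10.4% of autosomal genes did.

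Of the 3 measured receptors that compete for the same ligands, Ctla4 and Tigit rose and Cd96 fell. Tigit, an inhibitory receptor for the poliovirus receptor, went from 11.3 ± 2.91 to 50.8 ± 1.04 RPKM and Cd96, another receptor of that ligand, from 38.8 ± 2.79 to 9.24 ± 0.231 RPKM (SD, n = 3 each, log2 2.10 and -1.96). CD226 binds that ligand as well, and its gene fell, as described above. Tigit and Cd226 thus stood at 11.3 and 37.4 RPKM before and at 50.8 and 16.0 RPKM after stimulation.

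Among the other SLAM genes and their adaptors 6 of 8 fell and 1 rose, where 48.9% of all genes tested were lower and 31.2% higher, and the median log2 was -1.35 against -0.24. The receptor genes Cd244a, listed in the tables under its older symbol Cd244, and Cd84 fell by 2.56 and 1.90 on the log2 scale. Slamf8, a receptor gene of myeloid cells, went from 2.19 ± 0.152 to 0.0466 ± 0.0320 RPKM, and Sh2d1b1, the gene of an adaptor of NK cells, fell by 1.43 on the log2 scale. The adaptor SAP of T cells, Sh2d1a, stood at 4.52 ± 0.315 and 5.29 ± 1.28 RPKM (SD, n = 3 each, limma adjusted p = 0.316), and the gene that rose was Slamf7, named like Sh2d1a after its values were seen. On summed allelic counts with edgeR 3 fell. That fit has its own filter on low counts, and how many of the 8 passed it is not given here. For the test of a changed share, which uses another filter, only 4 of the 8 had enough allelic reads.

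Signalling partners went both ways, with 17 of 28 lower, 7 higher and 4 not past the test. Over all genes tested 48.9% were lower and 31.2% higher. The list's median log2 was -0.38, near the -0.24 of all genes tested. Prkcq, a protein kinase C of T cells that acts downstream of CD28, fell from 48.5 ± 2.31 to 13.9 ± 0.507 RPKM (SD, n = 3 each, log2 -1.73). Pik3r1, a regulatory subunit of phosphoinositide 3-kinase bound by CD28 and ICOS, fell by 1.51 on the log2 scale and the adaptor Grap2 by 1.41. After median centring, with the median gene at 0.02, 13 fell and 8 rose. The shares of all genes under that setting are not given here.

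Genes of T cell states in which these receptors serve as markers all fell, 9 of 9, where 48.9% of all genes tested were lower, with a median log2 of -1.03 against -0.24. After median centring 7 fell, with the median of all genes tested at 0.02. On summed allelic counts with edgeR 5 fell, with that median at -0.06. The shares of all genes that fell under these settings are not given here. Bcl6 and Cxcr5, the factor and the chemokine receptor of follicular helper cells, fell by 2.73 and 1.32 on the log2 scale, from 7.63 ± 1.76 to 0.287 ± 0.132 RPKM and from 7.90 ± 1.18 to 2.57 ± 0.573 RPKM (SD, n = 3 each). B cell markers fell in the same comparison, and the part of B cells in these values was not tested. Foxp3 of regulatory T cells fell by 2.27 and Il7r of resting T cells by 2.21. Cd4 and Cd8a, named after their values were seen, fell by 0.55 and 0.41.

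Other cell types moved with the groups. Summed over fixed marker lists, RPKM in the unstimulated and the stimulated libraries ranged from 241 to 338 and from 10.6 to 16.2 for 6 NK cell genes, and from 118 to 232 and from 10.7 to 22.1 for 8 B cell genes. For 7 myeloid genes the ranges were 1154 to 3378 and 7.03 to 11.6, for 5 dendritic cell genes 28.6 to 36.9 and 0.553 to 1.01, and for 8 erythroid and platelet genes 80.5 to 1305 and 2.32 to 15.3. All genes tested on the NK, B, myeloid and dendritic cell lists fell (6, 8, 7 and 5), as did 6 of 7 on the erythroid list. Over all genes tested 48.9% were lower. Xcr1, Clec9a and Siglech were at 0 in all stimulated libraries. Cd44, Cd226 and Slamf6 are also expressed by such cells, as are the ligands Icosl, Cd72, Cd80 and Cd86, and the part of these cells in the falls was not tested. Their part in the falls of Bcl6, Cxcr5, Cd96, Cd244a and Cd84 was not tested either. In bulk RNA, fewer cells of a type and less RNA per cell cannot be told apart.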

How the data were processed

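The 2 deposited tables hold RPKM of each gene over both alleles, and raw counts of C57BL/6 and castaneus reads of each gene, per the file headers. The submitters' processing notes name STAR 2.7.1a, featureCounts and mm10. The sources used here do not give the annotation, gene lengths, strand setting or allele assignment. Positions are from GENCODE M21 on mm10, which 99.3% of the identifiers matched.

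RPKM was compared with limma 3.58.1 (R 4.3.3, trend, two-sided). Genes needed 3 or more libraries with RPKM of 1 or above, and values entered as log2(RPKM + 1). Log2 fold changes are on that scale and understate changes of low genes, and folds are ratios of mean RPKM. Cast shares were compared with edgeR 4.0.16 (quasi-likelihood, two-sided, 1 term per library, library sizes over both alleles) for genes with at least 30 allelic reads in each group. The interaction of allele and group gave the changed share. Adjusted p-values are Benjamini-Hochberg over all genes tested, for shares separately over autosomal and X-linked genes without Xist, with a threshold of 0.05. Both fits were tested on simulated data. DESeq2 1.42.0, other scalings and filters, a replicate block and leaving out each library were alternatives. Pvrig was on no row of the tables and Itgam on more than 1, and neither was used. Exact binomial intervals are at 95%.

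Named genes were the 10 receptor genes and, of each list, up to 4 with the largest absolute log2 fold change among those past the test. One gene that this rule names is not reported here. Members and lists were chosen with earlier results of these data known. Equal replicate numbers went together in the allelic ratios (correlations of deviations from group means of 0.28, 0.30 and 0.18 across 9043 autosomal genes that had 50 or more allelic reads in each library) but not in RPKM (0.00603, 0.0611 and 0.0908 across 13288 genes). The labels do not say that equal numbers share an animal. Correlations across genes are not over independent replicates.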

Additional observations from a re-analysis of the deposited data

Results flagged for a closer look

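The difference between the alleles changed with stimulation for Icos and Cd28, by edgeR's test of the interaction of allele and group. The log2 ratio of cast to mus reads changed by 3.54 for Icos and by 0.89 for Cd28, and the stimulated libraries stood above the unstimulated ones in 3 of 3 cases for each gene. Over the 11 alternatives the Icos value ran from 3.46 to 3.62 (adjusted p at most 5.62e-08) and the Cd28 value from 0.79 to 0.96 (adjusted p at most 0.00017).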

How the results depend on the processing

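Of the receptor genes, 9 kept their direction and call under every alternative run for them, in RPKM and, without Cd2, on summed allelic counts, with Icos from 3.63 to 4.55 and Slamf6 from -4.45 to -2.75 on the log2 scale. Cd28 was 0.15 after median centring, 0.69 with edgeR and 0.68 with DESeq2 on summed allelic counts, and the cause was not tested. Without 1 library each, its RPKM value ran from -0.21 to -0.04. The change of the allelic ratio changed sign for genes near no change, for Cd44 with TMM factors (-0.0034) and, leaving out 1 library each, for Cd44 (from -0.0325 to 0.0671) and Cd6 (from -0.0355 to 0.0333), as did the unstimulated allele difference of Cd226 (from -0.0261 to 0.0579). On summed allelic counts with edgeR 4 ligands rose, 3 SLAM genes or adaptors fell and 5 genes of T cell states fell, and the cause was not tested. The median gene stood at -0.06 in that setting, and its shares of all genes are not given here. Of the SLAM genes and adaptors only 4 of 8 had enough allelic reads for the test of a changed share, which uses another filter than the fit on summed counts. After median centring and after quantile normalisation 2 SLAM genes or adaptors rose in each, with the median gene at 0.02 and 0.04. Leaving out 1 library each, 1 to 2 ligands rose. With the replicate block 5 receptor genes rose and 4 fell in RPKM, as without it, and among the receptor genes it changed the call of Slamf6's cast share (log2 0.65, adjusted p = 0.0057) and no other. Stimulated Slamf6 rested on 166 to 204 allelic reads per library, and the cause of its changing call was not tested. The alleles of Cd2 could not be assessed.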

Other observations

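Cd2 had too few allelic reads for a share, but 6 protein-coding genes within 500 kb of it could be tested, a window set after the data were seen. Of all autosomal genes tested 10.4% changed their share. The cast share rose for Ptgfrn from 28.9% ± 5.87 to 48.2% ± 1.02 and for Cd101, a surface protein gene, from 30.1% ± 1.30 to 44.9% ± 5.35 (SD, n = 3 each, edgeR adjusted p = 0.0012 and 0.0373), and the other 4 did not pass. Cd101 fell from a mean of 6.76 to 0.468 RPKM, and its stimulated share rests on 184 allelic reads over the 3 libraries, against 1446 unstimulated. Of 17 genes tested within 500 kb of Slamf6, 2 changed their share, a proportion near that of all autosomal genes. These were Cd48 and Cd244a (edgeR adjusted p = 1.19e-05 and 0.0227), while Ly9, Cd84, Slamf7 and Slamf1 did not pass (0.115, 0.0641, 0.253 and 0.679). In the same windows around other receptor genes, 3 of 25 genes changed near Slamf1, 1 of 16 near Cd5, 1 of 17 near Cd6, 1 of 6 near Cd28, 0 of 3 near Cd44 and 0 of 2 near Cd226. Windows of neighbouring receptor genes overlap, and the same genes count again. Cd48 and Cd244a are near both Slamf1 and Slamf6, and Ccdc86 near both Cd5 and Cd6. The gene that changed near Cd28 is Icos.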
